A study of Mus musculus with 26 samples.

Results

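The transcription factors of the GATA family and the regulators that act with them in red cell, platelet and mast cell development were followed across wild-type and Prss57-/- mouse granulocyte-macrophage progenitors (GMPs), common myeloid progenitors (CMPs) and bone marrow-derived mast cells (BMMCs). The 10 genes were taken by name: Gata1, Gata2, Gata3, Zfpm1, Klf1, Tal1, Lmo2, Nfe2, Gfi1b and Fli1. All 10 were found among the 52636 genes of each file. Prss57 encodes the neutrophil serine protease NSP4. Wild-type mice were compared with littermates that lacked a Prss57 exon in the germline. GMPs and CMPs were sorted from the bone marrow of female mice as Lin-, SCA-1-, CD117+, CD34+ cells, with CD16/32 high for GMPs and low for CMPs, and each cell type had 4 wild-type and 4 Prss57-/- libraries. BMMCs were grown from sorted GMPs of male mice in interleukin-3 and stem cell factor, with 5 libraries of each genotype. In total, 26 RNA libraries in 6 groups were used.

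The labels number the replicates without naming the animals, and p-values measure the spread between these libraries. GMPs and CMPs were sequenced in 1 run and BMMCs in another, and culture, sex and run therefore cannot be told apart from cell type wherever BMMCs are set against progenitors. The libraries held 35501671 to 51497962 reads on genes in GMPs, 32078404 to 53264762 in CMPs and 18627626 to 28647216 in BMMCs. The deleted gene itself, Prss57, reached 123 to 198 normalized RPKM in wild-type GMPs against 0.0400 to 0.178 in Prss57-/- GMPs, and it had 2 to 27 counts in wild-type BMMCs and 0 in Prss57-/- BMMCs. The markers of the sort followed the labels: Fcgr3, which encodes CD16, was at 266 to 382 normalized RPKM in wild-type GMPs and 13.5 to 38.5 in wild-type CMPs, and Kit and Cd34 were present in every library. The mast cell genes Fcer1a, Cpa3 and Tpsb2 were each at 2189 normalized RPKM or more in all BMMC libraries. Prss57-/- BMMC library 3 stood apart from the other BMMC libraries, and the log2 fold changes between BMMC genotypes are given with and without it.

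GATA factors bind the DNA word GATA through zinc fingers. GATA2 acts in stem and progenitor cells and in mast cells. GATA1 takes its place during red cell and megakaryocyte development, an exchange known as the GATA switch, while both are kept in mast cells. GATA1 works with the cofactor FOG1, the product of Zfpm1, and in a complex that holds the basic helix-loop-helix factor TAL1 and the bridging protein LMO2. KLF1 drives globin and other red cell genes and FLI1, an ETS factor, drives platelet genes, and each restrains the other. NF-E2, of which Nfe2 encodes the p45 subunit, acts late in platelet and globin gene control, and GFI1B is a repressor that both lineages need. GATA3 is best known from T cells and innate lymphoid cells.

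The promoter sequences of 4 of the genes that differed most between CMPs and GMPs are shown here because the factors studied bind such words. They are the 250 bases before the start site, from RefSeq on GRCm38.p6, read 5′ to 3′ on the strand of the gene. Capitals mark, on either strand, the GATA words, which are AGATAA or its relative AGATAG as well as TGATAA or its relative TGATAG, and the word CCNCNCCC bound by KLF factors, which GC boxes can match too. Klf1 lies at chr8:84901732-84901981 (forward strand), Gfi1b at chr2:28621983-28622232 (reverse), Gata1 at chrX:7967911-7968160 (reverse) and Zfpm1 at chr8:122281891-122282140 (forward).
Klf1: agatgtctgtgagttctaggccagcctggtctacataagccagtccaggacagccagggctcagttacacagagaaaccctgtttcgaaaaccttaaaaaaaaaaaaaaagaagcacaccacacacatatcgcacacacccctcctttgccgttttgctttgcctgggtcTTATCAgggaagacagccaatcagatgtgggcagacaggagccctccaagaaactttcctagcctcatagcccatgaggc
Gfi1b: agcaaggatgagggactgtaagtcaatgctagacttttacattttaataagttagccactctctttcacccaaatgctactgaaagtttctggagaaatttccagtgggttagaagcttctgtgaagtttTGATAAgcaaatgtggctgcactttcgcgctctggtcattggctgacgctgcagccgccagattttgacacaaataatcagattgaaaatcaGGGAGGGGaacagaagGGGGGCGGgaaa
Gata1: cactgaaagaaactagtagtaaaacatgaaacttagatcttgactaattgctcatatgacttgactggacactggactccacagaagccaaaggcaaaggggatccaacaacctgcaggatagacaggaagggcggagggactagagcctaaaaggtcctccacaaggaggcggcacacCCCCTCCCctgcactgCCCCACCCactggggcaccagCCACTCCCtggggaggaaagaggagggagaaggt
Zfpm1: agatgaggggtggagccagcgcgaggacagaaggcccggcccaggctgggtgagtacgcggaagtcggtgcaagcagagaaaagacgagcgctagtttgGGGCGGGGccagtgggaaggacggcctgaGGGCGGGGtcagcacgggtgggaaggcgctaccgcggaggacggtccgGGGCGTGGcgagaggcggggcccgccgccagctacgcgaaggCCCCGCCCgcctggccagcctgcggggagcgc
Klf1 had a GATA word on the reverse strand (TTATCA as printed) whose first printed base lies 80 bases before the start site, and Gfi1b had TGATAA 120 bases before it. Gata1 and Zfpm1 had no GATA word here but held 3 and 4 KLF words. Promoters with start sites, 300 bases long with 50 bases after the start, were on hand for 7 of the 10 genes. Tal1 and Gata3 also had a GATA word in 1 of their promoters, and Gata2 had none. Of all 32851 promoters of that length, 29.8% held a GATA word and 49.5% a KLF word, so a match sets no gene apart.

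In GMPs and CMPs, the 10 genes spanned a wide range of normalized RPKM, a scale per gene length that allows levels of different genes to be compared. Lmo2 and Nfe2 led in all 4 progenitor groups. In wild-type GMPs, Lmo2 was at 138 ± 5.64 (SD, n = 4) and Nfe2 at 113 ± 7.27 (SD, n = 4), followed by Gata2 at 36.8 ± 8.79 (SD, n = 4), and the ranges of these 3 did not overlap. Fli1 and Tal1 came next with overlapping ranges, then Gata1, Zfpm1, Klf1 and Gfi1b, whose neighbours in the order overlapped, and Gata3 was last and close to 0. In wild-type CMPs, Klf1, Gata1, Zfpm1, Gfi1b and Tal1 had moved ahead of Gata2, each with a range that overlapped the next. Fli1 came after Gata2 without overlap and Gata3 was again last.

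**Figure D1:**
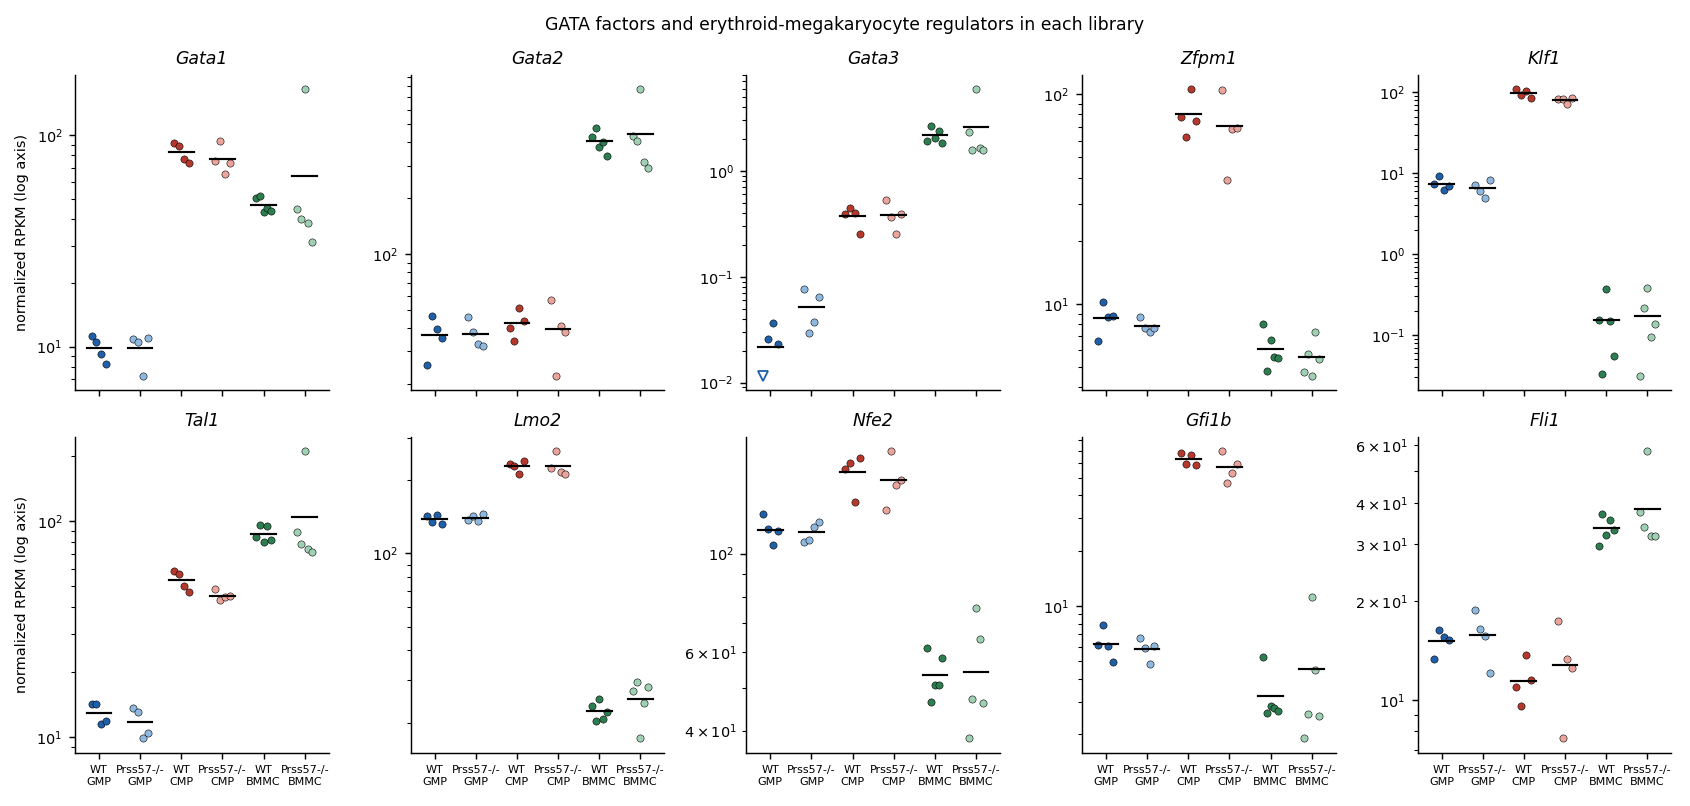
Normalized RPKM (log axis) of the 10 regulators in each of the 26 libraries, 1 panel per gene and 1 column per group, with points for libraries and lines for means; the open triangle is the wild-type GMP library with 0 counts of Gata3, drawn at the foot of the axis. Gata1, Zfpm1, Klf1, Tal1 and Gfi1b sit higher in CMPs than in GMPs without overlap, and Prss57-/- BMMC library 3 stands well above the rest of its group for Gata1, Gata2, Gata3, Tal1, Gfi1b and Fli1.

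The comparison of wild-type CMPs with wild-type GMPs asked how the erythroid-megakaryocyte regulators divide between these sorted populations. Gata1, Gata3, Zfpm1, Klf1, Tal1 and Gfi1b were called higher in CMPs, by log2 fold changes of 2.02 to 4.03, and none was called lower. These were 6 of 10 genes called at an adjusted p under 0.01 and at least 2-fold, where 12.8% of all 14967 genes tested were called, 6.53% of all in the higher direction. The libraries of the groups did not overlap for 8 of the 10 genes, against 31.5% of all genes. Adjusted p-values here were computed in edgeR by the quasi-likelihood method, with Benjamini-Hochberg correction for all genes of a comparison. In bulk libraries, fewer cells of a type and less RNA per cell cannot be told apart.

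Gata1 was at 11.2, 10.6, 9.28 and 8.29 normalized RPKM in the 4 wild-type GMP libraries. In wild-type CMPs it was at 91.6, 88.9, 77.2 and 74.0. Every CMP library lay far above every GMP library, and the log2 fold change was 3.06 (SE 0.13, edgeR adjusted p = 4.80e-07). Gata2, in contrast, was at 25.4, 46.4, 39.8 and 35.7 in GMPs. In CMPs it was at 40.2, 34.3, 51.6 and 43.6. These ranges overlapped, with a log2 fold change of 0.19 (SE 0.19, edgeR adjusted p = 0.455).

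The balance of the 2 factors within a library does not depend on how libraries are scaled to each other. Within groups, Gata2 varied with a library's dependence on exon length, described below (r = 0.949), and Gata1 less so (r = 0.208). The part of this in the ratio was not tested. The ratio of Gata2 to Gata1 was 3.81 ± 1.03 (SD, n = 4) in wild-type GMPs, with a lowest value of 2.27. It was 0.521 ± 0.131 (SD, n = 4) in wild-type CMPs, with a highest value of 0.668. Gata2 was thus above Gata1 in every GMP library and below it in every CMP library (p = 0.0286 for log2 ratios in an exact permutation test, two-sided, the smallest that 4 libraries against 4 allow). Prss57-/- progenitors had ratios of 3.84 ± 0.707 (SD, n = 4) in GMPs and 0.532 ± 0.219 (SD, n = 4) in CMPs. Against Spi1, which encodes the granulocyte and macrophage factor PU.1 that GATA1 opposes, the ratio of Gata1 was 0.0686 ± 0.0143 (SD, n = 4) in wild-type GMPs and 1.45 ± 0.371 (SD, n = 4) in wild-type CMPs. Gata1 was above Spi1 in every wild-type CMP library and below it in every wild-type GMP library (exact two-sided permutation test, p = 0.0286). In Prss57-/- mice the ratio was 0.0443 to 0.0803 in GMPs and 0.913 to 2.08 in CMPs, so that Gata1 was not above Spi1 in every Prss57-/- CMP library, though the ranges of the 2 cell types did not overlap.

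**Figure D2:**
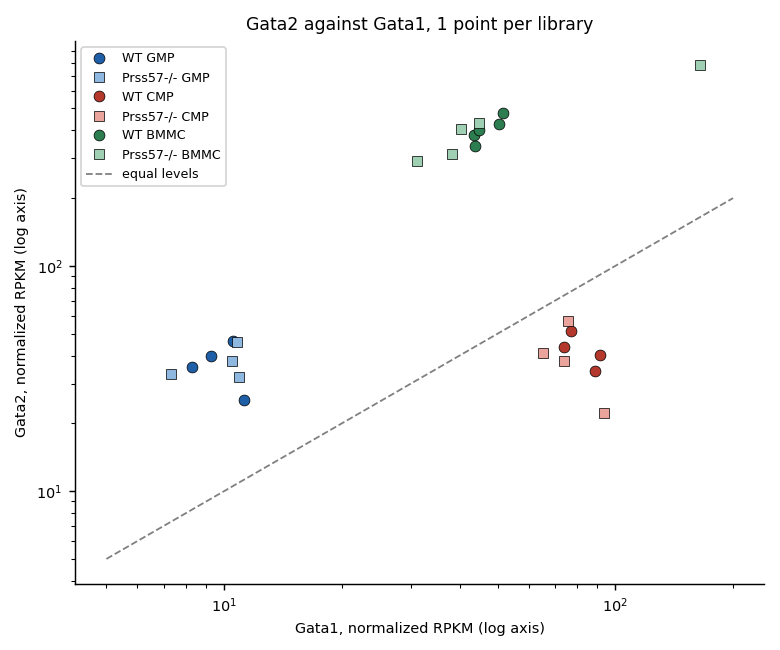
Normalized RPKM of Gata2 against Gata1 (both log axes), 1 point per library, circles for wild-type and squares for Prss57-/-, with a dashed line of equal levels. GMPs and BMMCs lie above the line and CMPs below it, with a Gata2 to Gata1 ratio of 8.63 in wild-type BMMCs, 3.81 in wild-type GMPs and 0.521 in wild-type CMPs.

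Gata3 was the lowest of the 10 and had 0, 5, 6 and 4 counts in wild-type GMPs, or 0 to 0.0368 normalized RPKM. In wild-type CMPs it had 59, 73, 82 and 33 counts, or 0.252 to 0.442 normalized RPKM. The counts did not overlap and the log2 fold change was 4.03 (SE 0.60, edgeR adjusted p = 0.000585), resting on single-digit counts in GMPs. Its exons share 155 bases with the antisense gene Gm13256, which had at most 5 counts in any library, and 77 with 9230102O04Rik, which had 0. Whether the counting used the strand is not given in the sources used here. Of 14 T cell and innate lymphoid genes, such as Cd3e and Bcl11b, 6 were tested and none was called, and their summed normalized RPKM was 3.39 to 5.16 in wild-type GMPs and 3.99 to 5.64 in wild-type CMPs.

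The cofactor gene Zfpm1 followed Gata1. Its normalized RPKM was 6.65, 10.2, 8.63 and 8.79 in wild-type GMPs and 77.7, 62.6, 106 and 74.6 in wild-type CMPs. The log2 fold change was 3.21 (SE 0.20, edgeR adjusted p = 2.14e-06), and the ratio of Zfpm1 to Gata1 was 0.888 ± 0.204 (SD, n = 4) in GMPs and 0.983 ± 0.287 (SD, n = 4) in CMPs, with overlapping ranges. Tal1 was at 14.2, 14.3, 11.5 and 11.9 in GMPs and at 58.9, 56.9, 50.1 and 46.9 in CMPs. The groups did not overlap and the log2 fold change was 2.02 (SE 0.12, edgeR adjusted p = 1.67e-06). Its partner Lmo2 was high in both, at 132 to 144 in GMPs and 213 to 241 in CMPs. It was higher in every CMP library, but with a log2 fold change of 0.71 (SE 0.09, edgeR adjusted p = 0.000183) it stayed under the fold limit.

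Klf1 was the regulator with the largest fold change after Gata3. It was at 7.32, 9.11, 6.23 and 7.05 normalized RPKM in wild-type GMPs and at 110.2, 91.9, 103 and 85.3 in wild-type CMPs, with a log2 fold change of 3.70 (SE 0.15, edgeR adjusted p = 4.14e-07). Gfi1b was at 6.08, 7.84, 6.02 and 4.96 in GMPs and at 67.8, 59.2, 66.7 and 58.5 in CMPs, a log2 fold change of 3.32 (SE 0.15, edgeR adjusted p = 5.13e-07). Neither gene had a GMP library anywhere near a CMP library. Nfe2 was at 105 to 122 in GMPs and 130.5 to 164 in CMPs, and its log2 fold change of 0.41 (SE 0.10) missed the threshold with an edgeR adjusted p of 0.0111. Fli1 was at 13.4, 16.3, 15.5 and 15.3 in GMPs and at 10.98, 9.57, 13.7 and 11.5 in CMPs. It was the 1 gene of the 10 with a lower mean in CMPs, with overlapping ranges, a log2 fold change of -0.42 (SE 0.14) and an edgeR adjusted p of 0.0327, so it was not called. The within-library ratio of Klf1 to Fli1 was 0.492 ± 0.0746 (SD, n = 4) in GMPs and 8.64 ± 1.37 (SD, n = 4) in CMPs.

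**Figure D3:**
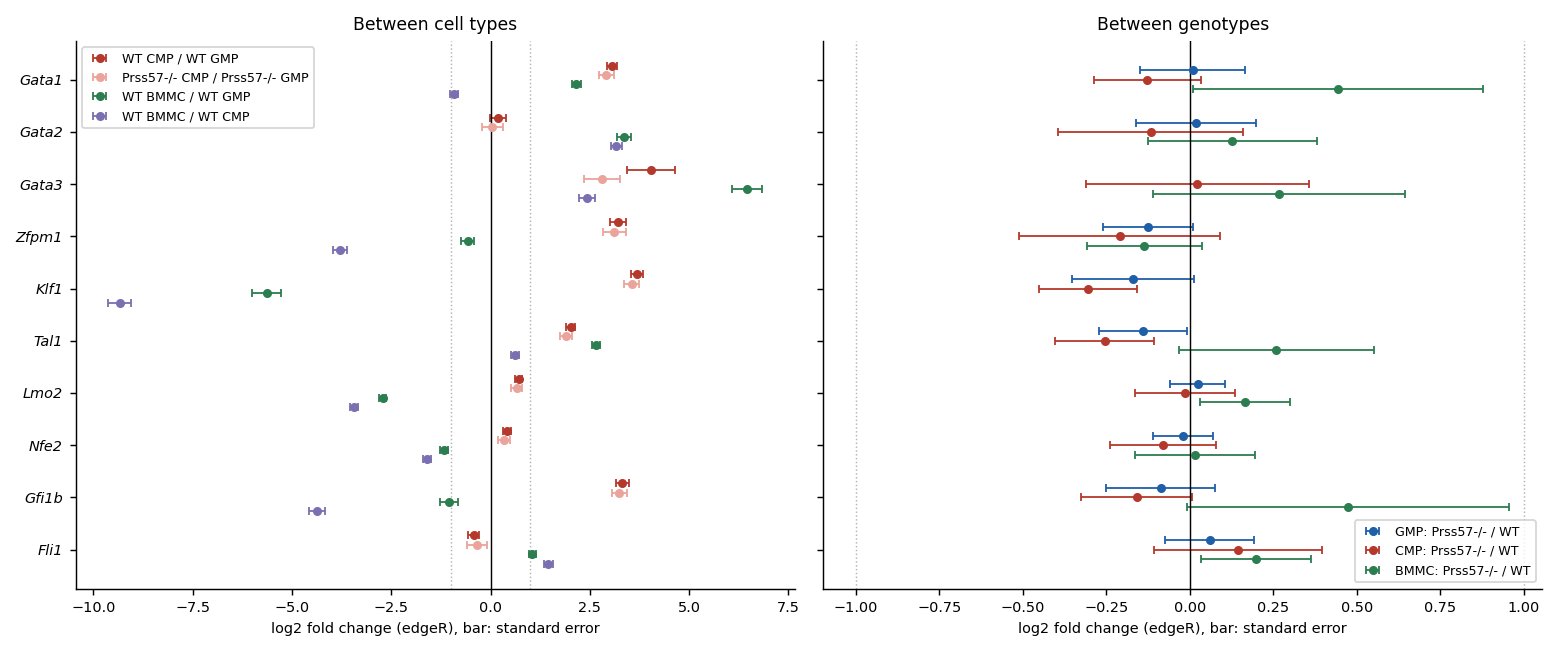
Log2 fold changes from edgeR (points) with standard errors (bars) of the 10 regulators, between cell types on the left and between genotypes on the right; dotted lines mark 2-fold. The differences between cell types reach from -9.34 to 6.46, while those between genotypes stay within 2-fold; Gata3 in GMPs and Klf1 in BMMCs were not tested between genotypes because of low counts.

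Genes that act with or downstream of the regulators were described by lists, and their counts of higher and lower genes are of genes called. The lists share genes: Cebpa is in the mast cell and basophil list and in the granulocyte and macrophage list. Gfi1 is in the latter and among the partners. Of 28 erythroid genes, 27 were tested, and 16 were higher and 0 lower in wild-type CMPs, with a median log2 fold change of 2.53 against 0.02 over all genes. The largest were Car1, a red cell carbonic anhydrase, at 4.85 (SE 0.31), Aqp1, the water channel, at 4.79 (SE 0.25), Rhd, a blood group protein, at 4.23 (SE 0.42), and Epor, the erythropoietin receptor, at 4.23 (SE 0.24). Epor was at 1.14 to 2.28 normalized RPKM in GMPs and 29.4 to 38.5 in CMPs. Hbb-bh1, an embryonic globin, was at 0 in all progenitor libraries.

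Of 25 megakaryocyte genes, all tested, 17 were higher and 0 lower, with a median log2 fold change of 2.17. Pf4, a platelet chemokine, rose by a log2 fold change of 5.04 (SE 0.36), the thrombin receptor gene F2rl2 by 4.30 (SE 0.34) and Treml1 by 4.25 (SE 0.35). Itga2b, which encodes CD41, was at 22.7 to 35.3 normalized RPKM in GMPs and 102 to 138 in CMPs, a log2 fold change of 2.10 (SE 0.17). Red cell and platelet genes were thus both higher in the population where Gata1, Zfpm1, Klf1, Tal1 and Gfi1b were higher. The lists differed little in their medians. Nfe2 and Fli1, described above with platelet genes, were not called, at log2 fold changes of 0.41 and -0.42.

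The list of granulocyte and macrophage regulators lay the other way. Besides transcription factors it holds the receptor genes Csf1r, Csf3r and Csf2ra, the granule protein genes Mpo, Elane, Prtn3 and Ctsg, and Ly6c2. Of 20, 19 were tested, of which 17 were lower and 1 higher in CMPs, with a median log2 fold change of -2.05. Cebpe, which drives granule gene expression, was at a log2 fold change of -4.15 (SE 0.37), the elastase gene Elane at -3.72 (SE 0.40) and Ly6c2 at -3.22 (SE 0.22), while the immediate early gene Egr1 was the exception at 3.69 (SE 0.38). Spi1 was at 131 to 157 normalized RPKM in GMPs and 50.5 to 70.0 in CMPs, a log2 fold change of -1.32 (SE 0.13). Cebpa, at -1.77 (SE 0.19), was lower as well.

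Mast cell and basophil genes were also lower in CMPs, with 11 of 17 tested lower and 1, the interleukin-33 receptor gene Il1rl1, higher and a median log2 fold change of -1.99. Prss34 and Mcpt8, proteases of basophils, were at log2 fold changes of -7.55 (SE 0.50) and -4.58 (SE 0.24), and Gzmb was at -4.82 (SE 0.36). Cma1 had 0 counts in all wild-type CMP libraries and 0.781 to 5.77 normalized RPKM in GMPs. The chains of the IgE receptor were called, with Fcer1a at -3.89 (SE 0.32) and Ms4a2 at -2.44 (SE 0.17), while Kit was at 0.11 (SE 0.15, edgeR adjusted p = 0.576). The mast cell and basophil genes summed to 2486 to 2966 normalized RPKM in wild-type GMPs and 250.1 to 301 in wild-type CMPs. Gata2, which acts in mast cells, had overlapping levels between the same libraries.

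The partners of the regulators, 30 genes of the same complexes and families, were mostly near 0 in this comparison. Of 26 tested, 1 was higher and 1 lower, with a median log2 fold change of -0.04. Gfi1, the paralog of Gfi1b, fell by 2.81 on the log2 scale (SE 0.19), from 35.1 to 44.3 normalized RPKM in GMPs to 3.70 to 7.27 in CMPs, opposite in direction to Gfi1b. Bcl11a, a repressor of fetal globin genes, was higher at 1.02 (SE 0.16). Ldb1, which joins LMO2 complexes to each other, was at 0.51 (SE 0.10), Lyl1, a relative of Tal1, at -0.56 (SE 0.09) and Runx1 at -0.46 (SE 0.17), all under the fold limit. Gata4, Gata5 and Zfpm2 were at 0 in all wild-type GMP libraries, and Gata5, Gata6 and Zfpm2 in all wild-type CMP libraries.

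**Figure D4:**
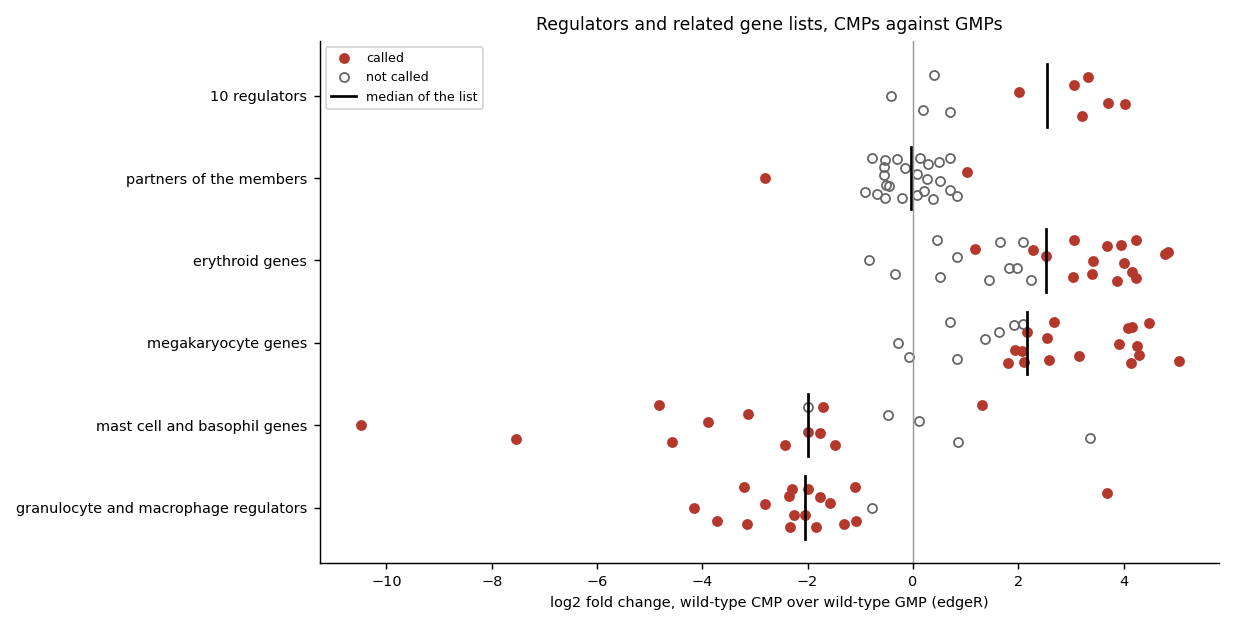
Log2 fold change of wild-type CMPs over wild-type GMPs (edgeR) for the 10 regulators and 5 lists, 1 point per gene tested, filled where called, with vertical bars at list medians. The medians are 2.54 for the regulators, 2.53 for erythroid and 2.17 for megakaryocyte genes, and -1.99 and -2.05 for mast cell and basophil genes and for granulocyte and macrophage regulators; the leftmost point is Cma1, a fitted value against 0 counts in CMPs.

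Markers of other cells were looked at in the same comparison. Neutrophil and macrophage genes, 12 in all, summed to 1605 to 3405 normalized RPKM in wild-type GMPs and 33.4 to 59.1 in wild-type CMPs, with 8 of 12 called lower in CMPs and 2, the complement genes C1qa and C1qb, higher. B cell genes summed to 40.1 to 51.5 and 27.4 to 41.5. Stem and multipotent genes had 6 of 10 called higher in CMPs. The part of these cells in the regulators' differences was not tested.

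In Prss57-/- mice, the comparison of CMPs with GMPs gave the same 6 genes, all higher in CMPs, where 8.42% of all 14959 genes tested were called, 4.38% of all in the higher direction. The groups did not overlap for 8 of the 10 genes, against 28.5% of all genes. The log2 fold changes were 2.92 (SE 0.18) for Gata1, 2.82 (SE 0.46) for Gata3, 3.12 (SE 0.29) for Zfpm1, 3.56 (SE 0.19) for Klf1, 1.90 (SE 0.16) for Tal1 and 3.25 (SE 0.19) for Gfi1b. The largest of their edgeR adjusted p-values was 0.00241, for Gata3. Lmo2, at 0.66 (SE 0.14), again stayed under the fold limit, and Nfe2, Fli1 and Gata2 were not called, with Gata2 at 0.05 (SE 0.27, edgeR adjusted p = 0.908). Of the lists, 18 of 27 erythroid and 17 of 25 megakaryocyte genes were higher and none lower. The call of Gata3 lay near the threshold. Without Prss57-/- GMP library 2 its edgeR adjusted p was 0.0101 (log2 fold change 2.61), and without library 3 it was 0.0117 (2.69). Then 5 of the 10 were called, where 807 of 15288 genes were without library 2 and 785 of 15429 without library 3.

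Loss of Prss57 was then compared within each cell type, to ask whether the regulators differed by genotype. None of the 9 regulators tested in GMPs was called, where 0.00681% of all genes were, and none of 10 in CMPs, where 0.0067% were. No regulator had an unadjusted p under 0.05 in either, against 0.81% of all genes in GMPs and 0.51% in CMPs, every edgeR adjusted p was 1.00, and limma voom and DESeq2 called none. In GMPs the log2 fold changes of Prss57-/- over wild-type ran from -0.17 for Klf1 to 0.06 for Fli1, with SEs of 0.08 to 0.18. Gata1 was at 10.8, 10.5, 7.29 and 10.9 normalized RPKM in Prss57-/- GMPs and Gata2 at 46.1, 38.01, 33.0 and 32.1. Both overlapped the wild-type range, and in GMPs none of the 10 separated the genotypes, against 0.994% of all genes. Gata3 was not tested in GMPs and had 15, 5, 6 and 8 counts in the Prss57-/- libraries.

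In CMPs the log2 fold changes ran from -0.31 for Klf1 to 0.14 for Fli1, with SEs of 0.15 to 0.33. Klf1 was at 82.4, 82.4, 71.2 and 84.3 normalized RPKM in Prss57-/- CMPs, and all 4 lay under the lowest wild-type library at 85.3. On this scale it was 1 of 10 genes whose genotypes did not overlap, against 0.818% of all genes in this comparison. On CPM, a count scaled to the total of its library, they overlapped, with Prss57-/- library 1 at 169 above wild-type library 4 at 156. Normalized RPKM summed over all genes to 785333 in Prss57-/- CMP library 2, where Klf1 was at 110.4 CPM, and to 336085 to 480995 in the other CMP libraries. On normalized RPKM the exact two-sided permutation test gave p = 0.0286, and 0.571 after adjustment over the 30 tests of 10 regulators in 3 cell types. By edgeR the log2 fold change of Klf1 was -0.31 (SE 0.15, unadjusted p = 0.0641). Tal1 was at 48.3, 43.0, 44.4 and 45.0 in Prss57-/- CMPs, overlapping the wild-type range at 1 library, with a log2 fold change of -0.26 (SE 0.15). The other 8 regulators overlapped as well.

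The difference between the genotype effects in CMPs and GMPs was tested directly in 1 fit of the 16 progenitor libraries. None of the 10 regulators was called at an adjusted p under 0.01, nor any of the 15900 genes (0%), while 169 genes (1.06%), but no regulator, had an unadjusted p under 0.05. The differences ran from -1.20 (SE 0.74) for Gata3, which rests on low counts, to 0.09 (SE 0.30) for Fli1.

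BMMCs, which the study used as cultured mast cells, showed another combination. Gata2 was the highest of the 10, with 427, 479, 379.8, 401 and 339.8 normalized RPKM in the wild-type libraries. This placed its mean above 99.4% of the 16669 genes tested in any comparison. Tal1 came next at 80.2 to 95.5, then Nfe2 at 46.4 to 61.5 and Gata1 at 43.4 to 51.7, which overlapped each other. Fli1 and Lmo2 followed without overlap, then Zfpm1, Gfi1b and Gata3 with overlapping neighbours, and Klf1 was last with 5, 1, 14, 5 and 2 counts, some of them under the floor of 3.

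Against wild-type GMPs, the cells from which such cultures start, 9 of 10 regulators were called, 5 higher and 4 lower, where 51.7% of all 14754 genes were, 27.3% higher and 24.4% lower. The libraries did not overlap for 8 of 10, against 75.3% of all genes. Gata2 was higher by a log2 fold change of 3.37 (SE 0.18), Tal1 by 2.66 (SE 0.11), Gata1 by 2.16 (SE 0.11), Fli1 by 1.05 (SE 0.09) and Gata3, at 1.83 to 2.63 normalized RPKM in BMMCs, by 6.46 (SE 0.37). Klf1 was lower, at -5.64 (SE 0.36), or -6.29 without wild-type BMMC library 3, which held 14 of its few counts. Also lower were Lmo2 at -2.72 (SE 0.09), Nfe2 at -1.18 (SE 0.10) and Gfi1b at -1.04 (SE 0.22). The edgeR adjusted p-values of these 9 were at most 0.00101, but Gfi1b lay close to the fold limit and DESeq2, which put it just under, called 8 of the 10. Zfpm1, at 4.78 to 8.00 in BMMCs, changed by less than 2-fold, with a log2 fold change of -0.58 (SE 0.16), and its ratio to Gata1 was 0.131 ± 0.0271 (SD, n = 5) in BMMCs.

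Against wild-type CMPs, a comparison that uses the same BMMC libraries, 8 of 10 were called, 3 higher and 5 lower, where 57.5% of all 15007 genes were, 29.6% higher and 27.9% lower. Gata2, Fli1 and Gata3 were higher, by log2 fold changes of 3.17 (SE 0.14), 1.46 (SE 0.11) and 2.43 (SE 0.21). Lower were Klf1 at -9.34 (SE 0.28, or -10.01 without wild-type BMMC library 3), Gfi1b at -4.37 (SE 0.20), Zfpm1 at -3.80 (SE 0.18), Lmo2 at -3.44 (SE 0.10) and Nfe2 at -1.60 (SE 0.11). Gata1, at -0.92 (SE 0.10), and Tal1, at 0.62 (SE 0.10), stayed under 2-fold. BMMCs thus held Gata1 and Tal1 within 2-fold of CMPs but Zfpm1, Lmo2, Gfi1b and Klf1 far below. The libraries of BMMCs and CMPs did not overlap for any of the 10 genes, against 76.9% of all genes without overlap. The Gata2 to Gata1 ratio in BMMCs was 8.63 ± 0.577 (SD, n = 5), above every progenitor library (p = 0.0159 for log2 ratios in an exact permutation test, two-sided, against wild-type GMPs and against wild-type CMPs, the smallest that 5 against 4 allow).

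Of 22 mast cell and basophil genes, 17 of 21 tested were higher in BMMCs than in GMPs and 3, Mcpt8, Prss34 and Cebpa, lower. Against CMPs 20 of 22 were higher and 1, Enpp3, lower. Fcer1a was at 2720.3 to 3668 normalized RPKM and Kit at 392 to 734, and the tryptase gene Tpsab1 and the serotonin synthesis gene Tph1, at 0 counts in all wild-type progenitors, were at 600.4 to 1005 and 334 to 627. Of the erythroid genes, 23 of 26 tested were lower than in CMPs and 0 higher, with a median log2 fold change of -6.47, or -5.46 with the 6 genes at 0 counts in a group set to the floor. Among them Epor was at 0.0767 to 0.385, and Rhd, Cldn13 and the band 3 gene Slc4a1 had 0 counts. Megakaryocyte genes were split, with 7 higher and 13 lower of 25 against CMPs (median log2 fold change -1.16) and 13 higher and 8 lower of 24 against GMPs (median 1.94). Thbs1 rose by 7.24 (SE 0.31) and Itga2b by 1.46 (SE 0.14), while Gp1bb was at -6.94 (SE 0.21), all against CMPs. Of the neutrophil and macrophage genes, 9 of 11 tested were higher than in CMPs and 0 lower, with a median log2 fold change of 4.53, and 6 of 12 were higher and 6 lower than in GMPs. They summed to 1018 to 1327 normalized RPKM in wild-type BMMCs. C1qb and Mrc1, genes of macrophages, were higher than in CMPs by log2 fold changes of 7.97 (SE 0.25) and 10.31 (SE 0.28). The part of such cells in the regulators' differences was not tested.

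Of the partners, 12 of 26 were higher and 6 lower in BMMCs than in CMPs, and 10 higher and 3 (Ssbp2, Bcl11a and Myb) lower than in GMPs. Over all genes tested, 29.6% were called higher and 27.9% lower against CMPs, and 27.3% and 24.4% against GMPs. Myb, a factor of immature progenitors, fell from 112 to 151 normalized RPKM in CMPs to 5.74 to 17.2 in BMMCs, a log2 fold change of -3.85 (SE 0.29). Bcl11a fell by 3.95 (SE 0.18), and Bach2 and Maff, which encode a BACH factor and a small MAF protein, rose by 3.26 (SE 0.25) and 3.23 (SE 0.30). Klf3 was at 28.5 to 42.6 in BMMCs and 3.41 to 4.07 in GMPs. Runx1 was higher than in GMPs by 1.11 (SE 0.12) and than in CMPs by 1.55 (SE 0.12). Spi1, at 107 to 135, was not called, with log2 fold changes of -0.33 (SE 0.09) against GMPs and 0.97 (SE 0.12) against CMPs.

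Between genotypes in BMMCs, 0 of 9 regulators tested were called, where 0% of all 13938 genes were, and none had an unadjusted p under 0.05, as 332 genes (2.38%) did. No regulator separated the genotypes, against 0.717% of all genes. Limma voom and DESeq2 called no regulator either, all with library 3 included. Prss57-/- library 3 was the highest of its group for Gata1, at 165 against 44.8, 40.3, 38.2 and 31.1 in the others. For Gata2 it was at 777 against 291 to 431, for Tal1 at 209.7 against 71.6 to 89.1, and for Gfi1b at 11.2 against 1.90 to 4.47. It was the lowest for Lmo2, at 17.3 against 24.1 to 29.5. Library 3 also had the highest Cma1, at 14490 against 1565 to 3407, and the highest Fcer1a, at 6786 against 2189 to 2958, while Tpsb2, at 21821, lay within the 9474 to 22372 of the others. Its mast cell and basophil genes summed to 79991 against 27769 to 44235, and its stem and multipotent genes to 892 against 146 to 408. Of that 892, Ly6a alone made up 857, so the sum describes this gene rather than the list. Ly6a was at 155 to 342 in wild-type BMMCs, 1.17 to 1.97 in wild-type GMPs and 2.46 to 4.18 in wild-type CMPs. The neutrophil and macrophage genes of library 3 summed to 137 against 1379 to 1639.9, and its T cell and innate lymphoid genes to 2.83 against 20.2 to 34.4. Its list of granulocyte and macrophage regulators, with the granule protein and receptor genes in it, summed to 2661 against 1722 to 2206. Spi1, of the same list, was at 70.4 against 113 to 144. The B cell genes of library 3, at 0.546, lay within the 0.305 to 0.584 of the others. The part of these genes in the result was not tested.

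Without library 3, the log2 fold change of Gata1 between genotypes went from 0.44 (SE 0.43) to -0.29 (SE 0.10, unadjusted p = 0.0148, edgeR adjusted p = 0.597). Gata2 went from 0.13 to -0.17, Gata3 from 0.27 to -0.29, Tal1 from 0.26 to -0.16 and Gfi1b from 0.47 to -0.17. Nfe2 went from 0.02 to -0.13, Fli1 from 0.20 to 0.005 and Zfpm1 from -0.14 to -0.07. Lmo2 went from 0.16 (SE 0.13) to 0.27 (SE 0.08, unadjusted p = 0.00564, edgeR adjusted p = 0.557). With 4 Prss57-/- libraries there were still 0 genes called of 14162, while 1031 (7.28%) had an unadjusted p under 0.05, so that the 2 regulators under 0.05 stood among many genes. The direction of the genotype difference in Gata1, Gata2, Gata3, Tal1 and Gfi1b therefore depended on 1 library, and that of Nfe2, near 0, also changed.

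In Prss57-/- CMPs, Gata2, Zfpm1 and Fli1 varied more than the other well-counted regulators, and they varied together. There Gata2 was at 56.8, 22.2, 40.9 and 38.01 normalized RPKM, Zfpm1 at 104, 39.0, 67.9 and 69.3, and Fli1 at 17.5, 7.63, 13.4 and 12.5. Library 1 was highest and library 2 lowest for all 3. Across 11431 genes, each library's deviation from its group changed with exon length: the slope per doubling of length was 0.29 on the log2 scale in Prss57-/- CMP library 1 and -0.30 in library 2, and between -0.17 and 0.17 in the other progenitor libraries. Over the 16 libraries, the deviations of Gata2, Zfpm1 and Fli1 followed this slope with r = 0.949, 0.938 and 0.947, those of Gfi1b, Lmo2 and Tal1 with r = 0.769, 0.756 and 0.672, and those of Gata3, Klf1, Gata1 and Nfe2 with r = 0.540, 0.478, 0.208 and 0.0921. These deviations were of CPM without the TMM scaling that the tests used. With TMM scaling, the deviations of Gata2 went with those of Zfpm1 and Fli1 (r = 0.953 and 0.932). They went against those of Lmo2 and Nfe2 (r = -0.515 and -0.843). The r of Lmo2 and Nfe2 with the slope therefore hold for CPM only. All these r are descriptions across libraries that share the length measure. The order of r was not that of length: Gata2 has 5398 exon bases, Tal1 4379, Gata1 2438, Lmo2 2166 and Gfi1b 1830. Zfpm1 and Fli1 have 3503 and 3486, under the median of 4249 over the genes used. The part of this length dependence in the spread of each regulator was not tested.

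**Figure D5:**
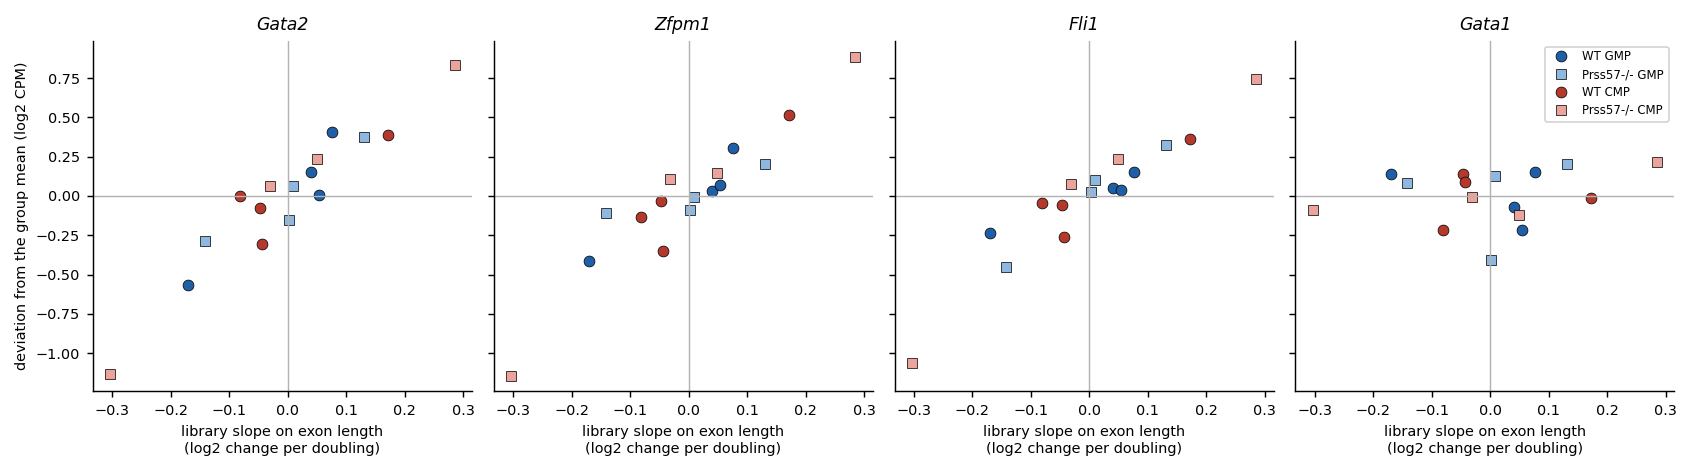
Deviation of Gata2, Zfpm1, Fli1 and Gata1 from the mean of their group (log2 CPM without TMM scaling) against each progenitor library's slope on exon length, 1 point per library. The first 3 rise along the slope (r = 0.949, 0.938 and 0.947) and Gata1 does not follow it closely (r = 0.208); the outermost points are Prss57-/- CMP libraries 2 and 1.

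The genes whose pattern was most like each GATA factor were taken by Pearson's r of group-centred log2 CPM over the 16 progenitor libraries, so that differences between the groups do not enter. For Gata1 they were 1700001G17Rik, Ica1l, Ctse, Gdpd1 and Gm26782 (r = 0.895 to 0.887). For Gata2 they were Ptpre, Pknox1, Ripor2, Nynrin and Eml2 (r = 0.978 to 0.971), all of which followed the slope on exon length with r of 0.941 to 0.981. For Gata3 they were Fam110b, Gm6679, Cpeb4, Garem1 and Mllt3 (r = 0.891 to 0.818). With no filter on low counts, 2 of the 5 genes for Gata1 remained, and with a smaller prior count 2 of the 5 for Gata3.

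The positions of the 10 genes on GRCm38, by GENCODE M21, are as follows. Gata1 lies on chromosome X from 7959260 to 7978071 and Gata2 on chromosome 6 from 88193891 to 88207032. Gata3, Lmo2 and Gfi1b all lie on chromosome 2, from 9857078, 103957986 and 28609450. Zfpm1 (from 122282141) and Klf1 (from 84901928) share chromosome 8, and Tal1, Nfe2 and Fli1 are on chromosomes 4, 15 and 9. All are annotated as protein-coding, and apart from Gata3 none shares exon bases with another gene.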

How the data were processed

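RNA was prepared with a stranded total RNA kit and read single-end. Alignment by the authors used GSNAP through HTSeqGenie against GRCm38, and for each library they deposited the raw count of uniquely aligned reads in the exons of each gene. They also deposited RPKM values adjusted by a size factor per library, called normalized RPKM here. Whether the counting used the strand is not given in the sources used here. The 10 regulators and all gene lists were chosen with earlier results of these data known.

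Groups and replicate numbers followed the labels. Counts were tested in edgeR 4.0.16 (R 4.3.3) with TMM scaling, filterByExpr and robust quasi-likelihood fits. Only the groups compared entered a fit, and the difference of genotype effects was tested in the 16 progenitor libraries. P-values were adjusted over all genes tested, and a gene was called at an adjusted p under 0.01 and at least 2-fold (no fold limit for the difference of effects). The regulators' normalized RPKM and their log2 ratios were compared by exact two-sided permutation tests in scipy 1.17.1. Counts below 3 in a library were taken as the floor, which covers counting error only. Levels are normalized RPKM, and likeness used log2 CPM with a prior count of 2. The text names the regulators, the genes of largest change in each list and a few set in advance by role. Others are named where a count was small, after their values were seen. One gene that the rule names is not reported here.

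Alternatives were limma voom (limma 3.58.1), DESeq2 1.42.0, another scaling, no filter, a fit of all 26 libraries, a replicate block, other thresholds and each library left out. The scripts were tested on simulated data. Promoters came from RefSeq and gene models from GENCODE M21, both on GRCm38. Same-numbered libraries of a comparison did not deviate together in every pair.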

Additional observations from a re-analysis of the deposited data

Results flagged for a closer look

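Among 60 sets of libraries, 1 for each of the 10 regulators in each of the 6 groups, 9 held a library whose gap to its neighbour was large against the range of its group. Chance alone flags about 1 in 20 of independent sets. The same libraries recur across the 10 regulators, so the 9 cannot be judged by that rate.

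Prss57-/- BMMC library 3 was the highest of its group in 6 of the 9, with 165 normalized RPKM for Gata1, 777 for Gata2, 5.96 for Gata3, 209.7 for Tal1, 11.2 for Gfi1b and 57.5 for Fli1. It was 4.27 times the mean of the other 4 libraries for Gata1, 2.15 times for Gata2 and 1.71 times for Fli1. The same library had 18627626 reads on genes, the lowest of all.

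Gata1 was lowest in Prss57-/- GMP library 3, at 7.29 normalized RPKM, and Klf1 was lowest in Prss57-/- CMP library 3, at 71.2. In CPM it was instead lowest in library 2, at 110.4 against 134 in library 3. Gfi1b was highest in wild-type BMMC library 1, at 5.29.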

How the results depend on the processing

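The number of regulators called stayed within 1.5 times its value under all 132 alternatives, and 0 were called between genotypes in every one. At an adjusted p under 0.05 without a fold limit, 9 and 7 regulators were called between CMPs and GMPs in wild-type and Prss57-/- mice. Under that rule 37.8% and 21.5% of all genes tested were called, and the 9 included Fli1, which was lower in CMPs. In wild-type BMMCs against GMPs, 8 rather than 9 were called by DESeq2, with RLE scaling, with all 26 libraries in 1 fit and without wild-type BMMC library 2, 3, 4 or 5 or wild-type GMP library 1 or 2, as Gfi1b or Fli1 missed a limit. Gfi1b was at a log2 fold change of -0.98 by DESeq2 and RLE and -1.02 with all libraries (adjusted p = 0.0106). The replicate block, which rests on a shared number only, left every count of regulators called as it was (6, 6, 0, 0, 0, 9, 8 and 0). The mean correlation of same-numbered libraries was between -0.0575 and 0.183 and no comparison had every pair over 0.1. With the block, 2000 genes were called between wild-type CMPs and GMPs, and at most 3 of 4 libraries correlated best with their own number.

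Small differences changed sign. Limma voom gave -0.0257 for Gata2 between Prss57-/- CMPs and GMPs, and between genotypes -0.00155 for Gata1 in GMPs, -0.0174 for Gata3 in CMPs and -0.0193 for Nfe2 in BMMCs. The replicate block gave -0.0190 for that Gata2 value, -0.00161 for Gata1 in GMPs and -0.0187 for Nfe2 in BMMCs. Leaving out 1 library moved Gata2 between Prss57-/- CMPs and GMPs from -0.19 to 0.25. Between genotypes in GMPs the ranges were -0.0554 to 0.14 for Gata1, -0.12 to 0.15 for Gata2, -0.0470 to 0.0226 for Nfe2, -0.17 to 0.0483 for Gfi1b and -0.0236 to 0.17 for Fli1. In CMPs they were -0.36 to 0.0770 for Gata2, -0.21 to 0.18 for Gata3, -0.0821 to 0.0236 for Lmo2 and -0.0618 to 0.32 for Fli1. In BMMCs they were -0.29 to 0.62 for Gata1, -0.17 to 0.25 for Gata2, -0.29 to 0.42 for Gata3, -0.16 to 0.37 for Tal1, -0.13 to 0.13 for Nfe2 and -0.17 to 0.73 for Gfi1b. For the difference of genotype effects they were -0.38 to 0.0731 for Gata2, -0.35 to 0.13 for Zfpm1, -0.0916 to 0.0072 for Lmo2, -0.20 to 0.0282 for Gfi1b and -0.12 to 0.28 for Fli1. The cause was not tested.

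Over all genes, the count between Prss57-/- CMPs and GMPs went from 1259 to 2156 by DESeq2, 2307 with all libraries in 1 fit and 785 to 2266 with 1 library left out (829, 807 and 785 without CMP library 3, GMP library 2 and GMP library 3, 2266 without CMP library 1). At an adjusted p under 0.05 without a fold limit it was 3222, and it was 5664 between wild-type CMPs and GMPs and 12030 between wild-type BMMCs and GMPs. DESeq2 called 2 genes between genotypes in GMPs and 3 in CMPs.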
